A study of Homo sapiens with 18 samples.

Results

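Clones dZF1 and dZF2 are 2 lines of human embryonic stem cells that carry a deletion in both copies of SP5, and their transcript levels after 24 h of Wnt3a were set against each other. The 2 libraries, 1 for each clone, are 2 of the 18 samples of the series, and the comparison covers all 497 genes of the deposited table of the clones. Both clones come from H1 (WA01) cells, an established embryonic stem cell line, grown in E8 medium. In each, CRISPR-Cas9 with the same pair of guide RNAs removed the segment of SP5 that encodes the zinc fingers, so both lack the part of the protein that binds DNA and make a truncated form at low level. Each line was grown from a single cell and had a normal karyotype, so a difference between the lines is a difference between 2 clones. Whether their sequences differ at the ends of the deletion or elsewhere was not tested here. The same clones without Wnt3a (0 h, kept in the storage buffer of the ligand) and after 12 and 48 h of 1 nM Wnt3a were used for comparison, each with 1 library. WT cells of the same line, unedited, gave 4 libraries at these times that are labelled replicate 2 (WT Rep. 2), and 4 libraries of a first WT series. With 1 library a clone and time there is no replicate error, so every value below is a description of these libraries and no p-value is given. The time was chosen because the clones lie farthest apart there, and the size of that distance is for this reason a description as well.

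Wnt3a is a secreted ligand that keeps β-catenin from being degraded. β-catenin then joins TCF/LEF factors on DNA and switches on target genes, and in human embryonic stem cells these include regulators of the primitive streak such as T (Brachyury, now TBXT), EOMES and MIXL1. SP5 is a target of the pathway and encodes a zinc-finger factor that recognises GC boxes. Cells of the streak go on to mesoderm or, under high NODAL signaling, to definitive endoderm, while genes of the stem cell state such as SOX2 decline.

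The value of a gene is its RPKM (reads per kilobase of transcript, scaled to the mapped reads of the library) divided by the highest RPKM that the gene reached in the 4 WT Rep. 2 libraries, so 1 is the WT maximum. The authors rounded these values to 2 decimals and deposited no read counts with them, so the depth of the libraries is unknown and no counting error can be given. Differences are log2 ratios of dZF2 to dZF1 after 0.05 was added to both values, which understates differences of genes with low values. Genes are called at least 2-fold apart on that scale, and a fold given for a named gene is the plain ratio of its values. A gene listed at 0 in a clone is given without a fold. Markers of the stem cell state were well expressed in the first WT series, with an RPKM of 294.6 for POU5F1, 238.3 for SOX2 and 393.8 for DNMT3B at 0 h, while NANOG was at 3.3. Of 4 markers of blood and endothelium, PECAM1 and CDH5 are not listed in the RPKM table, RUNX1 did not pass 5.6 RPKM, and KIT, which other cells also express, went from 8.3 to 25.4 RPKM and was alike in the clones at 24 h (0.89 in dZF1 and 0.95 in dZF2). SP5 itself, whose transcript can still be counted outside the deleted segment, was at 0.90 in dZF1 and 0.75 in dZF2 at 24 h, against 0.09 in WT Rep. 2, and both clones reached similar values at 48 h (2.54 and 2.61).

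Sequences at the start of genes that lead the comparison are shown first, because SP5 recognises GC boxes and 2 of the genes at least 2-fold apart at 24 h had an SP5 ChIP-Seq peak, in the list used here, with its summit within 10000 bases of an annotated start site. That list holds 540 peaks, fewer than the study counts, so peaks not analysed here could lie near the other genes. The paper itself names T, GSC and NODAL, besides MIXL1, among genes with an SP5 peak. The 2 genes are MIXL1, which was higher in dZF2, and BHLHE40, which was lower. The windows of 151 bases around the summits are from GRCh37, on the plus strand, at chr1:226411092-226411242 and chr3:5020320-5020470, and capitals mark GGGCGG or GGGAGG on either strand.
MIXL1 summit: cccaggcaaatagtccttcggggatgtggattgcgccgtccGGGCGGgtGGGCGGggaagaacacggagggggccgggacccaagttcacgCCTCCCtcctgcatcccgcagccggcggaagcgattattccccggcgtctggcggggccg
BHLHE40 summit: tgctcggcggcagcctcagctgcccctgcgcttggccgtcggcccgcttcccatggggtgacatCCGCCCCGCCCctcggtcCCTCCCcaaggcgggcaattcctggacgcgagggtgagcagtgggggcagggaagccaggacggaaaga
Each window holds 2 matches to GGGCGG and 1 to GGGAGG, and in the BHLHE40 window the 2 matches to GGGCGG share a base. At least 1 of these motifs stands in 55.8% of the 539 windows of the same length at SP5 summits, so the letters do not set these 2 apart.

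The gene with the widest difference outside a joined gene model was T, on chromosome 6 at 166571144 to 166582188, minus strand, in GRCh37. The nearest SP5 summit in the list lay 84636 bases from its start site, although the paper counts T among genes with an SP5 peak. Its RefSeq promoter, from 250 bases before to 50 bases after the start, is at chr6:166168606-166168905 in GRCh38.p14, minus strand, and is shown with its GC box in capitals.
T promoter: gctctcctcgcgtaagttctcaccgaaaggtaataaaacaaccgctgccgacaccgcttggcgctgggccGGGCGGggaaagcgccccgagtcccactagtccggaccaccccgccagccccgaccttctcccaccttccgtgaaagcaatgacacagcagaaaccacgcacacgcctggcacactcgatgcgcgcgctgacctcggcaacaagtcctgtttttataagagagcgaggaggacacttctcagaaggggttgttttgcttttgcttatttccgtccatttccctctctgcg
It holds 1 match to GGGCGG and none to CTTTGA, a core that TCF/LEF factors recognise, with both strands searched. Of all 35116 promoters of this length in the RefSeq table, 45.0% hold GGGCGG and 12.9% hold CTTTGA. Among the genes at least 2-fold apart whose promoter was matched, GGGCGG was found in 20 of 23 that were higher in dZF2 and in 7 of 13 that were lower, and CTTTGA in 4 and 0 of them.

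The clones lay farther apart at 24 h than at the other times over the whole table. The median absolute log2 ratio was 0.39 at 24 h, a 1.31-fold distance, against 0.23 without Wnt3a, 0.22 after 12 h and 0.21 after 48 h. At 24 h, 32 genes were at least 2-fold higher in dZF2, which is 6.44% of the table, and 18 were at least 2-fold lower, which is 3.62%. The corresponding counts were 13 higher (2.62%) and 19 lower (3.82%) at 0 h, 18 (3.62%) in each direction at 12 h, and 13 higher (2.62%) and 8 lower (1.61%) at 48 h. The excess at 24 h thus lay on the higher side, while the count of lower genes at 24 h was about that at 0 and 12 h. At 4-fold there was no such excess over 0 and 12 h. In dZF2, 4 genes were then higher and 4 lower at 0 h, 5 and 1 at 12 h, 4 and 2 at 24 h, and 2 and 1 at 48 h. The median ratio over all genes was 0.11, against 0.0, -0.019 and -0.028 at 0, 12 and 48 h, and with this median taken off the split at 24 h became 24 higher and 27 lower. Of the 50 genes at least 2-fold apart at 24 h, 4 are listed at 0 in a clone, namely TBX3 in dZF1 and GLIPR1L1, KCNV1 and DIO3 in dZF2. The distance was not confined to genes with low RPKM, since in the 205 genes that reached 30 RPKM or more in the first WT series the median absolute ratio was 0.38 at 24 h and between 0.18 and 0.20 at the other times. On the higher side of the threshold RET (1.03), TCF7 (1.03) and DIDO1 (1.04) lay just inside and GRM4 (0.99), NKD1 (0.98) and EOMES (0.98) just outside. On the lower side BHLHE40 (-1.02) lay just inside, SOX3 and DIO3 stood exactly at it, and IPP (-0.99), DMD (-0.97) and YWHAZ (-0.96) lay just outside.

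**Figure D1:**
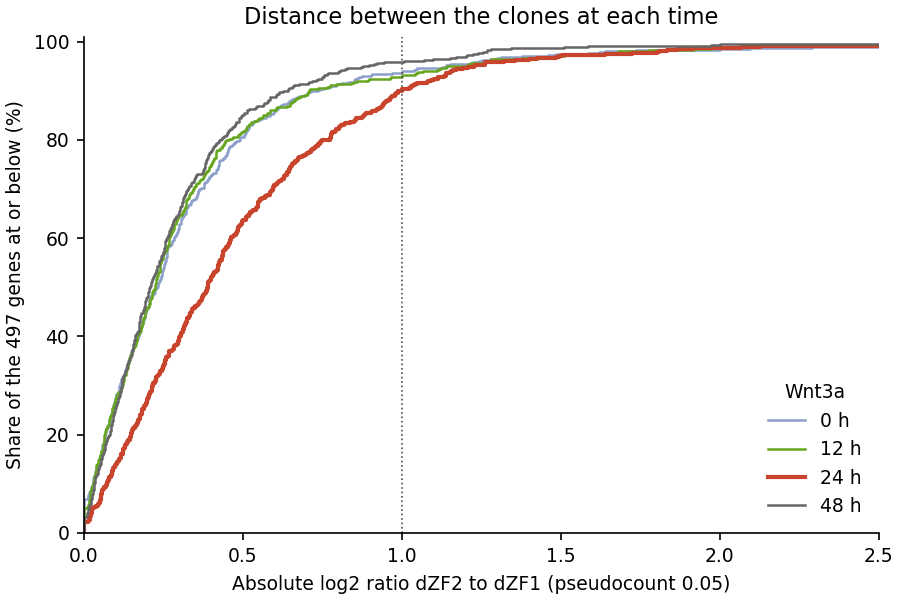
Share of the 497 genes (y axis, %) whose absolute log2 ratio of dZF2 to dZF1 is at or below the value on the x axis, with 1 line for each time of Wnt3a and a dotted line at 2-fold. At the median and at 2-fold the 24 h line lies to the right of the other 3, with medians of 0.39 against 0.21 to 0.23. At 4-fold it does not, with 4 genes higher and 4 lower at 0 h and 4 and 2 at 24 h.

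GC content moved with the ratio at 24 h. Across the 487 genes with an annotated transcript, the Spearman correlation between the ratio and transcript GC content was 0.30, beside 0.046, -0.055 and -0.23 for the ratios of 0, 12 and 48 h. These are correlations across genes, which share their libraries and are not independent replicates. With the genes in 5 classes of nearly equal size, the median of the class with the lowest GC content (33.43 to 41.50%) was -0.20 at 24 h, and in the 2 such classes with the highest it was 0.34 and 0.28. Among the 12 libraries of the table, taken gene by gene relative to their mean, the relation of level and GC content was strongest in the 2 libraries compared here, with a Spearman correlation of 0.17 in dZF2 and -0.15 in dZF1 at 24 h, and between -0.08 and 0.07 in the other 10. Genes at least 2-fold higher in dZF2 had a median GC content of 54.7% and those at least 2-fold lower 46.4%, against 49.3% for all. The promoter counts of GGGCGG and CTTTGA given above were not adjusted for GC content. They were also not set against the promoters of the other genes of the table. Whether either motif goes with the direction of the difference was therefore not tested. With a linear fit on GC content and transcript length taken off, which was chosen after seeing the data, 22 genes were higher and 22 lower, and the median absolute ratio at 24 h was 0.35. Of the 28 higher genes with an annotated transcript 18 kept their call under this fit, T (3.65), MIXL1 (2.22) and GMPR (1.98) among them, and 10 fell short, such as TCF7 (0.89), RET (0.86), EPHB3 (0.85), PLXNA2 (0.85) and DIDO1 (0.73). Of the 18 lower genes 16 kept it, and FLRT3 (-0.91) and BHLHE40 (-0.97) fell short.

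**Figure D2:**
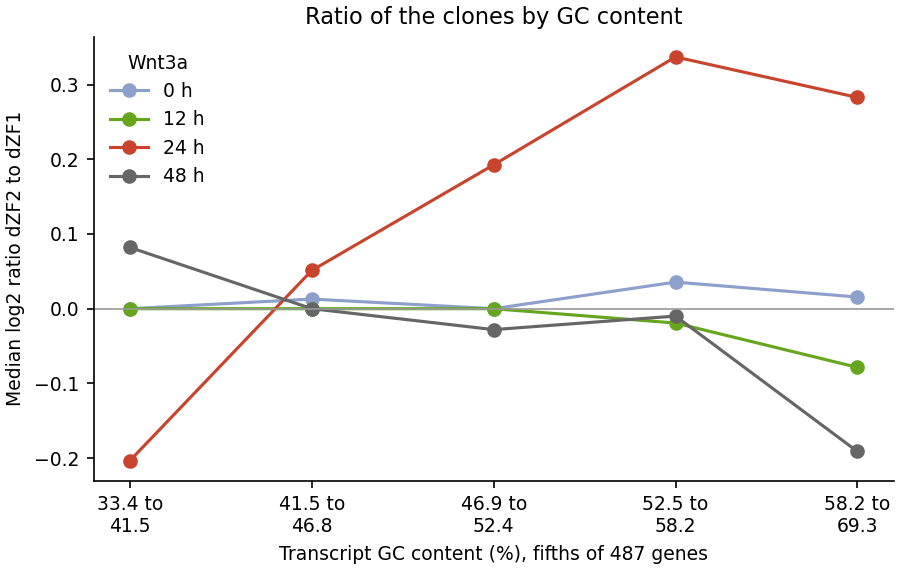
Median log2 ratio of dZF2 to dZF1 (y axis) in 5 classes of transcript GC content (x axis, %), with 1 line for each time. The 24 h line goes from -0.20 in the lowest class to 0.34 in the fourth, while the lines of 0 and 12 h stay near 0 and that of 48 h ends at -0.19.

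Regulators of the primitive streak and early mesoderm had the highest median of the 13 lists. Of 12 genes on this list 8 have a value, of which 4 were at least 2-fold higher in dZF2 and 0 lower, beside 6.44% and 3.62% of the table. The median ratio of the list was 1.10 at 24 h, beside 0.11 for all genes of the table. At 0, 12 and 48 h the medians of the list were 0.061, 0.066 and 0.24. T, the T-box factor that marks the streak, was at 0.46, 0, 0.42 and 1.96 in dZF1 at 0, 12, 24 and 48 h, and at 0, 0.24, 6.16 and 3.23 in dZF2. The 24 h value of dZF2 was the highest of the 12 libraries, and it stood 14.7 times above that of dZF1, a log2 ratio of 3.72. WT Rep. 2 was at 0, 0.18, 0.34 and 1 at these times, so dZF1 lay near WT at 24 h and dZF2 did not. The level of T in the first WT series was 0.2, 5.8, 21.7 and 10.1 RPKM, and like dZF2 this series was highest at 24 h. MIXL1, a homeobox gene of the streak and its mesendoderm, was at 0, 0.17, 0.71 and 1.22 in dZF1 and at 0.09, 0.18, 3.27 and 1.5 in dZF2. The clones were thus alike at 12 h and 4.61-fold apart at 24 h (log2 ratio 2.13), and at 48 h they lay within 2-fold again. GSC, the organizer homeobox gene, was at 0.74 in dZF1 and 1.80 in dZF2 at 24 h (log2 ratio 1.23), and at 48 h the order turned to 2.09 and 1.66. EOMES, a T-box factor needed for mesendoderm, was at 0.94 in dZF1 and 1.90 in dZF2 at 24 h, a log2 ratio of 0.98 that falls just short of the threshold because of the pseudocount. TBX3, a T-box factor of later mesoderm and endoderm, is listed at 0 in dZF1 and at 0.07 in dZF2 at 24 h, and its level in the first WT series was 0.1 RPKM at that time, so its place among the 4 rests on very low values. LHX1 (0 and 0.02) and APLNR, the apelin receptor (0.29 and 0.52), were less than 2-fold apart, and NKX1-2 was the only member with a ratio below 0 (0.70 in dZF1 and 0.50 in dZF2).

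**Figure D3:**
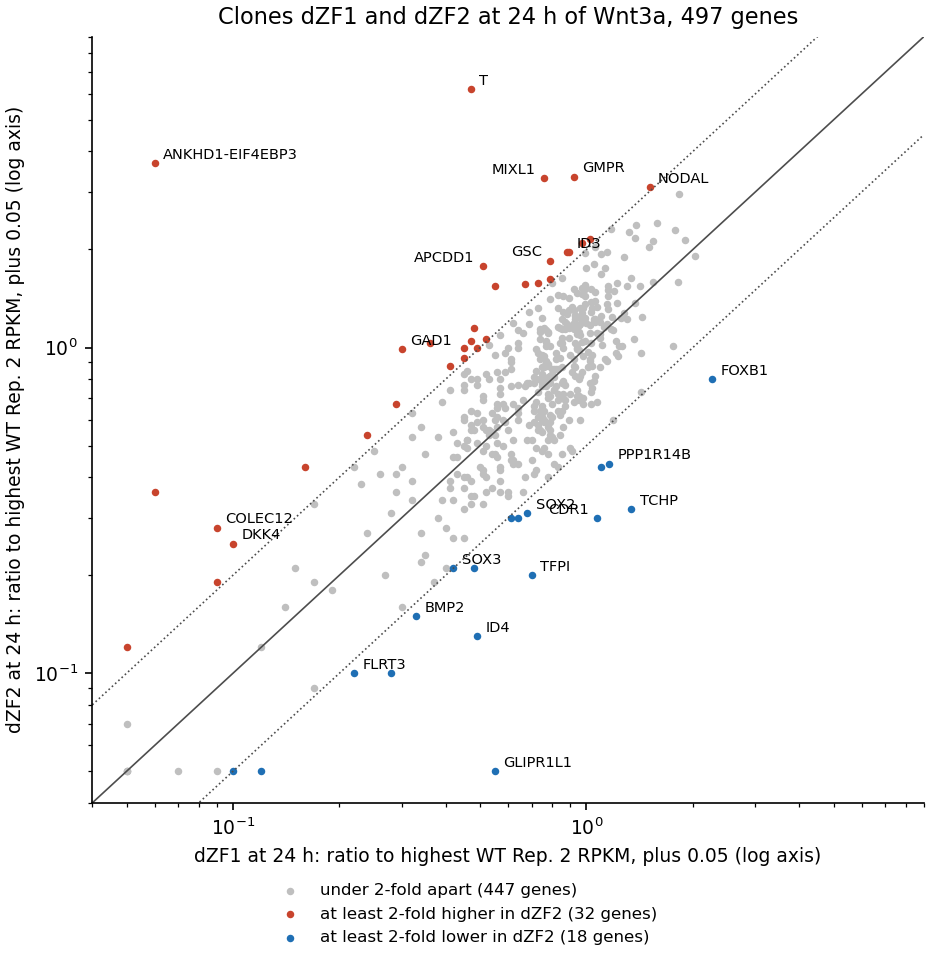
Values of the 497 genes at 24 h of Wnt3a in dZF1 (x axis) and dZF2 (y axis), as the ratio to the highest RPKM of WT Rep. 2 plus 0.05, on log axes, with 1 point a gene, the line of equal values and dotted lines at 2-fold. ANKHD1-EIF4EBP3, T, LOC100506686 and MIXL1 lie farthest above the line, in this order, and GLIPR1L1, listed at 0 in dZF2, farthest below it.

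The WNT pathway itself was represented by 17 genes, of which 3 were at least 2-fold higher in dZF2 and 0 lower, with 13 ratios above 0 and a median of 0.58 at 24 h. Over the whole table, 6.44% were called higher and 288 genes (57.9%) had a ratio above 0. Under the fit on GC content and length 2 members were higher and the median was 0.36. Medians of this list at 0, 12 and 48 h were -0.056, 0.0 and -0.044. APCDD1, a membrane protein that restrains WNT signaling, was at 0.11, 0.36, 0.46 and 1.45 in dZF1 and at 0.20, 0.31, 1.73 and 2.29 in dZF2, so the clones were 3.76-fold apart at 24 h (log2 ratio 1.80). DKK4, a secreted antagonist that binds the LRP co-receptors, was at 0.05 in dZF1 and 0.20 in dZF2 at 24 h and was lower in dZF2 at 48 h (0.63 and 0.35). TCF7, a TCF factor, was at 0.44 and 0.95 at 24 h, where WT Rep. 2 was at 0.95 as well, so here dZF1 was the clone that lay away from WT. NKD1, an intracellular antagonist, was at 0.75 and 1.53 (log2 ratio 0.98), and the ligand gene WNT3 at 0.95 and 1.70 (0.81). AXIN2, the feedback inhibitor found in most WNT responses, was at 0.87 and 1.09, a log2 ratio of 0.31. Among receptors, the ratios of FZD7 (0.61), ROR2 (0.60) and PTK7 (0.58) were above that of the table, while those of FZD5 (-0.21) and FZD8 (-0.11) were below 0. SP5 had a ratio of -0.25 at 24 h after a ratio of 1.26 at 12 h, when it was at 0.23 in dZF1 and 0.62 in dZF2.

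Among 9 genes of the NODAL and TGF-beta pathway 1 was at least 2-fold higher in dZF2 and 0 lower, beside 6.44% and 3.62% of the table. The median ratio was 0.36. NODAL, the ligand, was at 0.05, 0.29, 1.46 and 1.43 in dZF1 and at 0.05, 0.74, 3.06 and 1.64 in dZF2. It was therefore already apart at 12 h (log2 ratio 1.22) and remained so at 24 h (1.04), and the clones were close at 48 h (0.19). CER1, a secreted NODAL and BMP antagonist, was at 0.17 in dZF1 and 0.38 in dZF2 at 24 h (0.97). The other feedback inhibitors LEFTY1 (0.18) and LEFTY2 (0.08) had ratios close to the median of the table, and TGFB1 (-0.20) was the only member below 0. Of 12 genes of FGF signaling and its ERK feedback, 1 was higher and 1 lower, beside the same shares of the table, with a median of 0.11 equal to that of the table. FGF17, a ligand, was at 0.04 and 0.14 at 24 h and is listed at 0 in both clones at 0 and 12 h. FLRT3, a membrane protein that binds FGF receptors, was at 0.17 in dZF1 and 0.05 in dZF2, and both clones were near 3 times the WT maximum at 48 h (3.04 and 2.92).

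Among definitive endoderm regulators no gene was 2-fold apart at 24 h. Of 9 on the list 8 have a value, and the median was 0.096, or -0.016 with the median of the table taken off. SOX17, the defining factor of this lineage, is listed at 0 in both clones at 24 h and was at 2.88 in dZF1 and 4.0 in dZF2 at 48 h. FOXA2 (0.43 and 0.51) and the receptor gene CXCR4 (0.09 and 0.11) were nearly equal at 24 h, while GATA6 was higher in dZF2 (0.12 and 0.28) and HHEX lower (0.25 and 0.11), each by less than 2-fold on the scale with the pseudocount.

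The BMP list had the lowest median of the 13 lists, -0.39. Its 8 members are BMP2, ID1, ID2, ID3, ID4, SMAD6, CHRDL1 and RGMB. Of these, 1 was at least 2-fold higher and 2 lower, beside 6.44% and 3.62% of the table. The ID genes, which encode inhibitors of basic helix-loop-helix factors, did not move together. ID3 was at 0.74, 0.79, 0.84 and 2.15 in dZF1 and at 1.05, 1.21, 1.91 and 2.57 in dZF2, so dZF2 was higher at each of the 4 times and 2.27-fold higher at 24 h. ID4 was at 0.38, 0.48, 0.44 and 0.32 in dZF1 and at 0.34, 0.39, 0.08 and 0.84 in dZF2, which is 5.50-fold lower in dZF2 at 24 h (log2 ratio -1.91) and higher at 48 h (1.27). ID1 (-0.78) and ID2 (-0.26) were lower in dZF2 by less than 2-fold. The ligand gene BMP2 was at 0.28 in dZF1 and 0.10 in dZF2 at 24 h, but a similar difference stood at 0 h (0.30 and 0.10), and at 48 h the clones were at 2.31 and 2.35.

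Genes of the cell surface and the matrix lay mostly on the higher side without passing 2-fold. Of 10 guidance ligands and receptors, 9 had a ratio above 0, 2 were at least 2-fold higher in dZF2 and 0 lower, and the median was 0.69, beside -0.13, -0.21 and -0.11 at 0, 12 and 48 h. Both called members, PLXNA2 and EPHB3, fell short under the fit on GC content and length and with a pseudocount of 0.2, so the count was then 0, with medians of 0.54 and 0.56. PLXNA2, a semaphorin co-receptor, was at 0.24 and 0.62, and EPHB3, an ephrin receptor, at 0.19 and 0.49 at 24 h. SLIT2, a secreted repellent, was at 1.27 and 2.21 (0.78) and NTN1, netrin 1, at 0.36 and 0.69 (0.85). The 18 genes of extracellular matrix and adhesion had a median of 0.44, with 15 ratios above 0, beside 57.9% of the table. In this list 1 gene was at least 2-fold higher and 0 lower, a share near the 6.44% of the table, and under the fit on GC content and length the median was 0.25. COL13A1, a transmembrane collagen, was at 0.43 in dZF1 and 1.10 in dZF2 (1.26). The laminin chain LAMB1 (0.71), COL6A1 (0.71), FBN2 (0.70), THBS2 (0.70) and fibronectin, FN1 (0.45), lay between the median of the table and the threshold, and the cadherin gene CDH2 (-0.12) and the integrin gene ITGA6 (0.0) did not differ in this direction. For genes that respond to YAP/TEAD or belong to the actin cytoskeleton the median was 0.18 over 9 genes, with none at least 2-fold apart.

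**Figure D4:**
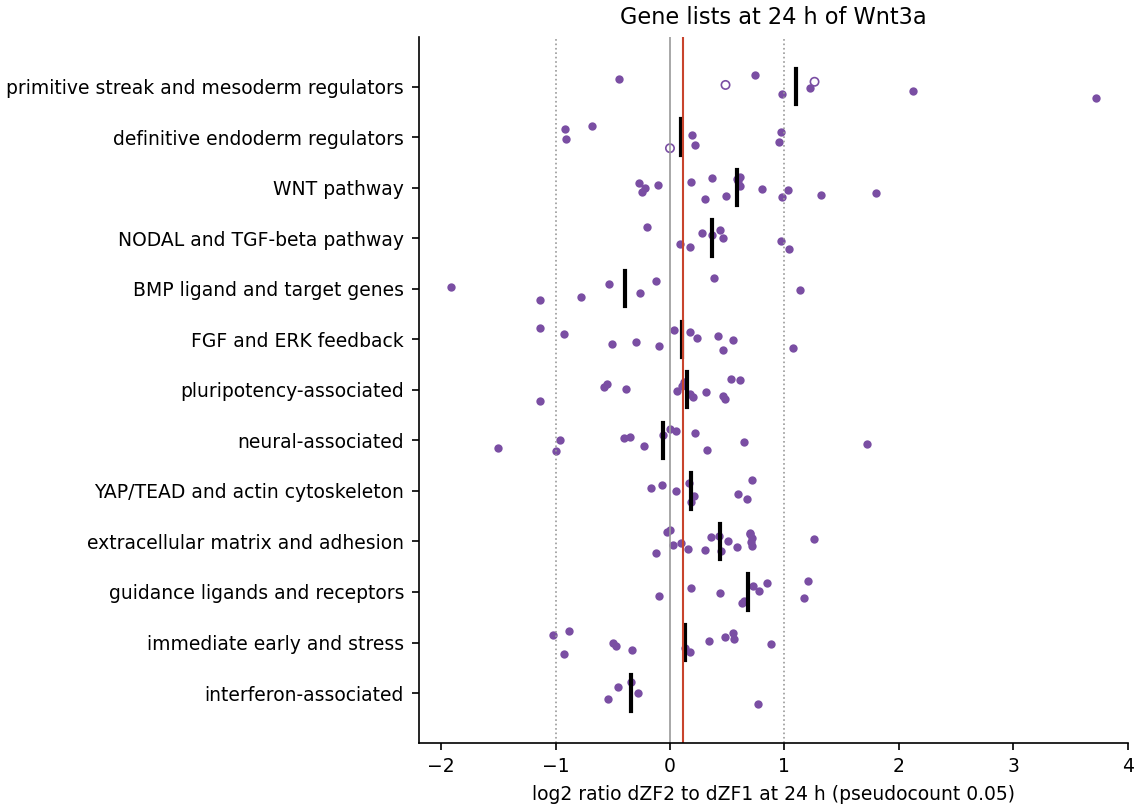
Log2 ratio of dZF2 to dZF1 at 24 h (x axis) for the members of 13 gene lists (rows), with 1 point a gene, open points for genes listed at 0 in a clone, a black bar at the median of the list, a red line at the median of all 497 genes (0.11) and dotted lines at 2-fold. The primitive streak list has the highest median (1.10) and the BMP list the lowest (-0.39).

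The pluripotency list had 1 member on the lower side. SOX2, which maintains pluripotency and later marks neural progenitors, was at 0.71, 0.71, 0.63 and 0.35 in dZF1 and at 0.62, 0.54, 0.26 and 0.41 in dZF2. It declined in both clones, in dZF2 it was lowest at 24 h, and the clones were 2.42-fold apart at that time (log2 ratio -1.13) and close at 48 h (0.20). SOX3, its close relative in the neural list, also declined and was lowest at 24 h in dZF2, with 0.54, 0.51, 0.37 and 0.12 in dZF1 and 0.62, 0.44, 0.16 and 0.27 in dZF2. The other pluripotency genes did not share this difference. Of 14 on the list only SOX2 was 2-fold lower and none was higher, and the median was 0.15. PRDM14 (0.33 in dZF1 and 0.48 in dZF2) and the methyltransferase gene DNMT3B (0.63 and 0.73) were somewhat higher in dZF2, and POLR3G (1.38 and 0.91) and CD24 (0.74 and 0.49) somewhat lower. The 13 neural-associated genes had a median of -0.064, with 1 higher and 2 lower. For this list and the pluripotency list, the shares over the whole table were 6.44% higher and 3.62% lower. GAD1, glutamate decarboxylase, was at 0, 0.15, 0.25 and 1.4 in dZF1 and at 0, 0.21, 0.94 and 2.16 in dZF2, 3.76-fold higher in dZF2 at 24 h. In the first WT series GAD1 went from a listed 0 at the start to 30.2 RPKM at 48 h. FOXB1, a forkhead factor of the neural tube, was at 0.46, 0.51, 2.22 and 1.09 in dZF1 and at 0.65, 1.87, 0.75 and 0.91 in dZF2, so each clone had a single high value, at 12 h in dZF2 and at 24 h in dZF1.

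**Figure D5:**
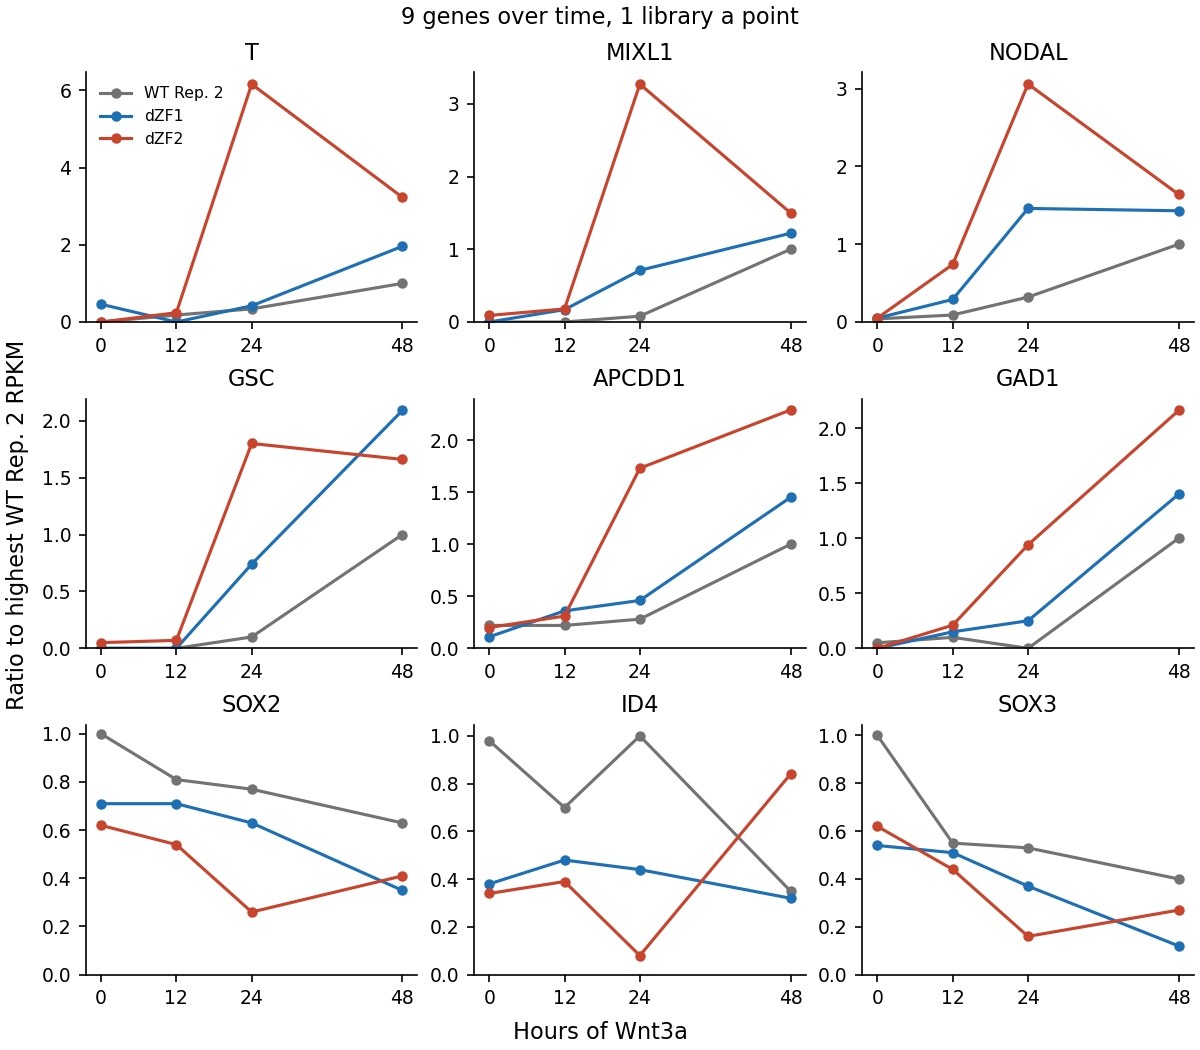
Values of 9 genes (y axis, ratio to the highest RPKM of WT Rep. 2) at 0, 12, 24 and 48 h of Wnt3a (x axis) in WT Rep. 2, dZF1 and dZF2, 1 library a point. T, MIXL1, NODAL and GSC are highest at 24 h in dZF2, whereas SOX2, SOX3 and ID4 are lowest there in dZF2. In dZF1 SOX2 and SOX3 are lowest at 48 h.

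Immediate early and stress genes had a median ratio of 0.13 over 13 genes, or -0.18 under the fit on GC content and length, with none higher and BHLHE40, a circadian and hypoxia-responsive repressor, lower (0.56 in dZF1 and 0.25 in dZF2). The shares over the whole table were 6.44% higher and 3.62% lower. EGR1 (-0.93) and PDK1 (-0.88) were lower in dZF2 and GADD45B (0.88) higher, each by less than 2-fold. The 5 interferon-associated genes with a value had a median of -0.34 and none was 2-fold apart.

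Several of the widest differences concerned genes outside these lists. The largest log2 ratio, 5.94, belonged to ANKHD1-EIF4EBP3 (0.01 in dZF1 and 3.63 in dZF2 at 24 h), a model that joins 2 neighbouring genes, so its values are uncertain. It was at 1.69 and 1.05 at 48 h. GMPR, a guanosine monophosphate reductase, was at 0.40, 0.60, 0.87 and 2.71 in dZF1 and at 0.31, 0.52, 3.30 and 2.34 in dZF2, a time course like that of MIXL1 with a 3.79-fold difference at 24 h. COLEC12, a scavenger receptor (0.04 and 0.23), FAM20A, a secretory pathway pseudokinase (0.31 and 0.98), and ARHGAP40 (0.11 and 0.38), were also among the 12 highest, as were 2 uncharacterised LOC models. Of these, LOC440925 was at 0.50 and 1.5, and LOC100506686 at 0.01 and 0.31, with the order of the clones turned at 12 h (0.17 and 0.05) and 48 h (0.80 and a listed 0). Among the lowest, GLIPR1L1 was at 0.50 in dZF1 and is listed at 0 in dZF2 at 24 h, with 0.40 and 0.28 at 12 h and 1.33 and 2.08 at 48 h. TCHP, a centrosomal keratin-binding protein, was at 0.51, 0.42, 1.29 and 1.29 in dZF1 and at 0.53, 0.37, 0.27 and 1.15 in dZF2, so dZF1 had reached its 48 h value at 24 h and dZF2 had not. PPP1R14B, an inhibitor of protein phosphatase 1 that is well expressed (72.3 RPKM at 24 h in the first WT series), was at 1.11 and 0.39. TFPI, an inhibitor of coagulation, was at 0.65 and 0.15. CDR1 was at 1.02 and 0.25, and it lies opposite an antisense RNA, from which its reads cannot be told apart where the counting did not use strand. ZNF600, a zinc-finger gene (0.23 and 0.05), YAF2, a partner of Polycomb proteins (1.05 and 0.38), and DLC1 (0.43 and 0.16), were also among the 12 lowest, as was KCNV1, a potassium channel subunit (0.07 and a listed 0).

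Genes were also divided by the time at which they respond in WT cells. In the first WT series, which the ratio does not use, genes were placed in wave i when highest at 0 h, in wave ii when highest at 12 or 24 h, and in waves iii and iv when highest at 48 h with at least or under 50% of that level at 24 h. Of the 132 genes of wave i, 1 was at least 2-fold higher in dZF2 (0.76%) and 3 lower (2.27%), beside 6.44% and 3.62% of the table. Wave ii, with 124 genes, held 12 higher (9.68%) and 2 lower (1.61%), among the former T, MIXL1, NODAL and GSC. Wave iii, also with 124 genes, held 7 (5.65%) and 3 (2.42%), and wave iv, with 117 genes, 12 (10.3%) and 10 (8.55%). The share of higher genes was thus alike in waves ii and iv. The median ratios of the waves, from i to iv, were 0.077, 0.11, 0.22 and 0.013, so wave iii had the highest median and wave iv was close to equal between the clones. With the median of the table taken off, waves i and iv had medians below 0 (-0.035 and -0.099).

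The 24 h library of dZF2 departed from its own neighbouring times more often than that of dZF1. Over all 497 genes, the 24 h value lay outside the range of the 12 and 48 h values for 226 genes in dZF2 (45.5%), of which 137 above and 89 below, and for 144 genes in dZF1 (29.0%). WT Rep. 2 had 182 such genes and the first WT series 163. Between 12 and 24 h, 111 genes rose and 16 fell at least 2-fold in dZF2, against 71 and 7 in dZF1, and 47 rose in both. Among the 94 genes that the first WT series had at their highest at 24 h, 48 were highest at that time in dZF2, 31 in dZF1 and 7 in WT Rep. 2. Over all 497 genes these counts were 121, 72 and 32, a similar proportion between the clones. For 23 of these 94 genes dZF2 was highest at 24 h and dZF1 at 48 h, and T, MIXL1, GSC and GMPR are the 4 of them that were at least 2-fold apart at 24 h. Of 179 genes that rose at least 2-fold from 12 to 48 h in both clones, the median share of that log2 rise reached by 24 h was 43.1% in dZF2 and 30.3% in dZF1. In dZF2 102 of them (57.0%) were farther along. By another measure, the ratio of the levels at 24 h, 57.9% of the whole table lay above 0. Of the 56 genes that fell at least 2-fold in both clones, 22 (39.3%) were farther along in dZF2. These counts of times were made after seeing the data.

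Set against WT Rep. 2 at 24 h, a library that both comparisons share, 111 genes were at least 2-fold above WT and 45 below in dZF2, and 60 above and 23 below in dZF1. The median absolute log2 ratio to this library was 0.64 for dZF2 and 0.46 for dZF1. Of the 32 genes higher in dZF2 than in dZF1, 24 lay at least 2-fold above WT in dZF2 and 7 in dZF1, while 7 lay at least 2-fold below WT in dZF1. Of the 18 lower genes, 11 were at least 2-fold below WT in dZF2, and 4 were at least 2-fold above WT in dZF1. MIXL1 (log2 ratio to WT of 2.55 in dZF1 and 4.67 in dZF2), GSC (2.40 and 3.62) and NODAL (2.03 and 3.07) were above WT in both clones. T was so in dZF2 (3.99) and near WT in dZF1 (0.27), and TCF7 was near WT in dZF2 (0.0) and below it in dZF1 (-1.03). On the lower side SOX2 was below WT by less than 2-fold in dZF1 (-0.27) and by more in dZF2 (-1.4), and ID4 was below WT in both (-1.10 and -3.01). WT Rep. 2 was itself low at 24 h for several of these genes, with MIXL1 at 0.08 and GSC at 0.10 of their maximum, where the first WT series was at its highest.

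At each other time, most of the genes called at 24 h were less than 2-fold apart. Of the 32 higher genes, 3 were at least 2-fold higher in dZF2 at 0 h, 7 at 12 h and 1 at 48 h, and 3, 3 and 1 were at least 2-fold lower at these times. Of the 18 lower genes, 3, 3 and 0 were at least 2-fold lower at 0, 12 and 48 h, and 1, 1 and 2 were higher. Over the whole table, 2.62%, 3.62% and 2.62% were higher at these times and 3.82%, 3.62% and 1.61% lower. The genes 2-fold higher in dZF2 at both 12 and 24 h were T, NODAL, GSC, CDC42EP1, C1orf97, FLJ35946 and ANKHD1-EIF4EBP3, and ZNF600, TFPI and DIO3 were lower at both times. GSC was the only gene 2-fold apart the same way at 0, 12 and 24 h, although its values were 0.07 or less in both clones before 24 h. RASGEF1B, a guanine nucleotide exchange factor, was the only gene apart the same way at 24 and 48 h (0.92 and 2.05, then 2.48 and 5.92). No gene was 2-fold apart the same way at 12, 24 and 48 h or at all 4 times. ID4 and YAF2, lower in dZF2 at 24 h, were at least 2-fold higher at 48 h.

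Genes were also divided by the SP5 peaks of the list used here, which is shorter than the study's, so the genes counted as without a peak may include some that have one. Among them are T, GSC and NODAL, for which the paper reports a peak. The deposited list of the Wnt3a-treated sample gave a summit within 10000 bases of the start site for 23 of the 487 annotated genes. Their median ratio at 24 h was 0.088, with 1 gene at least 2-fold higher and 1 lower, and that of the other 464 genes was 0.11, with 27 higher and 17 lower. MIXL1 (summit 152 bases from the start, 95 tags) and NKD1 (347 bases, 0.98) stood at the top of the 23, AXIN2 (1211 bases) had a ratio of 0.31, and BHLHE40 (727 bases, 53 tags) stood at the bottom.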

How the data were processed

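Ribosome-depleted RNA was sequenced. The authors used TopHat to align it to hg19 and Cuffdiff for the RPKM, and the versions and gene annotation are not given in the sources used here. In the deposited table of the clones, which covers 497 genes that the authors selected for their change in the first WT series, every RPKM was divided by the maximum of the gene in WT Rep. 2. Its values are therefore a fraction for WT Rep. 2 and, for the clones, a deposited ratio that can pass 1. The authors deposited the first WT series as RPKM for 10975 genes with at least 4 RPKM in a library. The SP5 peaks were deposited with a count of tags and a score from MACS 1.4.2. Neither RNA-Seq table holds counts, so depth is unknown and sets no interval. No per-sample column was left unused (0).

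Samples were grouped by their labels. Log2 ratios used a pseudocount of 0.05 and a threshold of 2-fold, with no filter and no test, because each clone has 1 library a time. Adding 0.05 leaves genes listed at 0 with a ratio that depends on it. The members and lists were chosen with earlier results of these data known. Genes named are the members of 13 lists (139 of 146 genes have a value), the 12 highest and 12 lowest ratios at 24 h, and any gene apart the same way at 24 h and its neighbours (0 found); the others, such as those nearest the threshold or apart at several times, were named after their values were seen. Start sites, transcript length and GC content came from GENCODE 44 mapped to GRCh37 (487 symbols matched), promoters from RefSeq GRCh38.p14. Python 3.11.15 with numpy 2.4.6, pandas 2.3.3, pysam 0.24.0 and matplotlib 3.10.9 was used. The code for the calls was run on simulated data with large planted differences and the same pseudocount. That run checks the code only, and not values listed at 0 or genes near 2-fold. Alternatives were other pseudocounts, filters, centring, the ratio relative to 0 h, other divisions of the waves and other peak distances and scores. The deposited tables that repeat the first WT series as fractions and the peak list of the untreated sample were not used here.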

Additional observations from a re-analysis of the deposited data

Results flagged for a closer look

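For 4 genes the change from 12 to 24 h was at least 2-fold up in 1 clone and at least 2-fold down in the other; the difference was not tested, since each value comes from 1 library. The log2 change of dZF2 minus that of dZF1 was -3.28 for FOXB1 (0.51 to 2.22 in dZF1 and 1.87 to 0.75 in dZF2). For PRDM1, a repressor expressed in early endoderm, it was -3.64, from a listed 0 to 0.12 in dZF1 and from 0.28 to 0.04 in dZF2. For LOC100506686 it was 3.72 (0.17 to 0.01 and 0.05 to 0.31), and for TBX3 it was 2.85, with values of at most 0.10 in both clones and a listed 0 in each. All 4 except FOXB1 rest on values of at most 0.31 of the WT maximum, where the pseudocount sets much of the change.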

How the results depend on the processing

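The clones were farther apart at 24 h than at the other times under each alternative run for the distance, with a median absolute ratio at 24 h between 0.32 and 0.43 and at most 0.28 at another time. Of 96 summary values, 86 stayed within the margin set for them (a count within 1.5 times, a median within 0.1). Of 104 list medians 73 moved by at most 0.1, and 31 by more. A pseudocount of 0.01 gave 28 genes lower, and a pseudocount of 0.2 gave 15 higher and 8 lower and a distance of dZF2 from WT of 0.52. Relative to the 0 h library of each clone 49 genes were higher, and there BMP2 (0.085), DLC1 (1.10) and TBX3 (-0.32) changed direction. With the median of the table taken off, waves i to iv had medians of -0.035, 0.0029, 0.10 and -0.099. Within 2000 bases of an SP5 summit the median ratio was 0.21. Of the 50 genes at least 2-fold apart, T, GMPR, GAD1, APCDD1 and RASGEF1B on the higher side and PPP1R14B, FOXB1, ID4 and CDR1 on the lower side passed the threshold under all 8 alternatives, while others lacked a value under a filter or fell short under at least 1. MIXL1 (0.64) and GSC (0.23) fell short only relative to 0 h. No paired analysis was possible because each clone has 1 library a time and the labels give replicate numbers to the WT samples only. Leaving out a replicate is likewise not possible. With depth unknown and 1 library a side, a difference between clones cannot be told apart from one between libraries.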
